A study of Mus musculus with 9 samples.

Results

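The surface markers of natural killer (NK) cell maturity described here are 6 genes, Cd27, Itgam, Klrg1, Cx3cr1, Spn and Emb. They were taken by matching the Entrez identifier of each row of the count files to these symbols, and all 6 were found among the 27179 genes of each file. RNA sequencing had been done on splenic NK cells of the C57BL/6 strain, to ask what ID2, a helix-loop-helix protein, does for NK cell fate and for the response to interleukin-15 (IL-15). There were 3 libraries of Id2-null NK cells and 3 of wild-type (WT) NK cells, each grown for 7 days in IL-15, and 1 library each of wild-type cells from populations named Immature, M1 and M2, which were sorted from spleen and not cultured. The cultured libraries were identified from the order in which the labels list the samples, which limits every comparison between cultured and sorted cells. No further treatment was given. The method of Id2 deletion, the age and number of mice, any pooling of animals and the sort markers were not given in the sources used here. Whether replicates came from separate animals or cultures is not labelled, and p-values reflect the spread among the libraries alone, which may be technical.

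Mouse NK cells pass through stages that are told apart by proteins on their surface. Less mature cells carry CD27, cells then gain the integrin chain CD11b, the product of Itgam, and the most mature cells lose CD27 and gain KLRG1 and CX3CR1. CD43, the product of Spn, is a mucin-like protein that also increases with maturity, and embigin, the product of Emb, is an immunoglobulin-family protein that partners monocarboxylate transporters. ID2 binds E proteins, transcription factors that recognise the E-box sequence CANNTG, and keeps them off DNA.

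Cd27 (Entrez 21940) lies on chromosome 6 at 125232620 to 125237136, and Klrg1 (Entrez 50928) on the same chromosome at 122270596 to 122282833, in the RefSeq annotation of GRCm38.p6. Itgam (Entrez 16409) lies on chromosome 7 at 128062640 to 128118491, and Spn (Entrez 20737) on chromosome 7 at 127123637 to 127145552. Cx3cr1 (Entrez 13051) lies on chromosome 9 at 120048683 to 120068296, and Emb (Entrez 13723) on chromosome 13 at 117220573 to 117274415. All 6 are protein-coding, and counts cover the exons that the submitters' gene lengths of 1365 (Klrg1) to 4682 bases (Itgam) describe. The long noncoding gene E130112N10Rik overlaps Cd27 and had 1 to 8 counts in a library, so that reads shared between them could not be set apart without strand.

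Promoter sequences were available from RefSeq (GRCm38.p6) for 5 of the 6 members, Cd27, Itgam, Cx3cr1, Spn and Emb. They run from 250 bases before to 50 bases after the start of transcription. Of these, 4 are shown because they belong to the 2 markers that were higher in Id2-null cells, Cd27 and Emb, and to 2 markers of mature cells, Itgam and Cx3cr1. Each is written 5′ to 3′ on the strand of its gene, with matches to CANNTG, which reads the same on both strands, in capitals. The Cd27 promoter is chr6:125236978-125237277, minus strand; that of Emb chr13:117220323-117220622, plus strand; that of Itgam chr7:128062390-128062689, plus strand; and that of Cx3cr1 chr9:120068247-120068546, minus strand.
Cd27: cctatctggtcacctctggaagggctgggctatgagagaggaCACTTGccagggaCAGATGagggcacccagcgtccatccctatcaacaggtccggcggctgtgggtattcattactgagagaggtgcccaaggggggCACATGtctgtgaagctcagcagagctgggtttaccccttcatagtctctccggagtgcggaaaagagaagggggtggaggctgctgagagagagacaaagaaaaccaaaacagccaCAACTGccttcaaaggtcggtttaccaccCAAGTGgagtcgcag
Emb: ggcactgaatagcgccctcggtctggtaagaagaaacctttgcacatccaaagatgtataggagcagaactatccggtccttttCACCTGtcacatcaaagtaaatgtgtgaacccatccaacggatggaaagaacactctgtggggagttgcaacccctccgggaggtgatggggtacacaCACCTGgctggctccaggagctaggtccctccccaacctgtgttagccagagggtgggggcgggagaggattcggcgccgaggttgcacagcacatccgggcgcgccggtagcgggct
Itgam: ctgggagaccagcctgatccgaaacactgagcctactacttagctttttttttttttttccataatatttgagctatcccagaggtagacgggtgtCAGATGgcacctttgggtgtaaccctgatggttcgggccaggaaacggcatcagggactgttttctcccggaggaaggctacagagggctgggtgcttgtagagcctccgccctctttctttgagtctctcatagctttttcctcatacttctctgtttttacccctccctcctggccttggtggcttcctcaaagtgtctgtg
Cx3cr1: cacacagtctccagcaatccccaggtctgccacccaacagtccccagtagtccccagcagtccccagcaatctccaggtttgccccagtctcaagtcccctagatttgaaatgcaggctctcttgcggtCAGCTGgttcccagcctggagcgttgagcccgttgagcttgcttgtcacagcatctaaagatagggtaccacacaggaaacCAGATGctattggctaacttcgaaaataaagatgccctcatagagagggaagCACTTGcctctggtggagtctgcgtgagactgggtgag

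The Cd27 window held 5 matches to CANNTG, as many as or more than which stood in 2.1% of the 32851 mouse promoters of the same length. The Emb window held 2, both CACCTG, and 39.6% of promoters held at least 2. CACCTG or its other strand CAGGTG, a form of CANNTG, stood in 20.2% of promoters. The Cx3cr1 window held 3 matches (17.6% of promoters held at least 3), and those of Itgam and Spn held 1 each, where 72.3% of promoters held at least 1. The T-box motif AGGTGTGA, or TCACACCT on the other strand, was in none of the 5 windows and in 1.28% of all promoters. These matches are a description of the letters, and no binding was measured.

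Total counts ran from 4128414 in Immature to 4831831 in WT replicate 3. A count of 0 was read as up to 3 counts, and all intervals and this limit cover counting error only. Levels are CPM, counts scaled to library size, with libraries normalised by the trimmed mean of M-values (TMM). Id2 had 56, 113 and 44 counts in the Id2-null libraries, against 1958, 1925 and 1945 in the WT libraries. Xist, which is transcribed from the inactive X chromosome of females, had 3681, 3109 and 4286 counts in Id2-null and 3, 1 and 6 in WT libraries, and the Y-linked gene Ddx3y had 1, 3 and 3 against 377, 355 and 373. Sex and genotype therefore cannot be told apart here. The sorted libraries held both, with 361 to 499 counts of Xist and 148 to 192 of Ddx3y. All 8 NK cell markers (Ncr1, Klrb1c, Klrk1, Nkg7, Eomes, Itga2, Tyrobp and Klrd1) had counts in every library, with a summed level of 3824 to 4572 CPM in Id2-null, 3333 to 4029 CPM in WT and 10240 to 15010 CPM in sorted libraries. Replicate 3 of each genotype stood apart from replicates 1 and 2.

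Across the sorted populations, RNA of 4 members was higher at each step from Immature through M1 to M2 (Itgam, Spn, Klrg1 and Cx3cr1) and RNA of Cd27 and Emb was lower at each step. All 6 differed by more than 2-fold between M2 and Immature, 4 of them higher, where 5.3% of 9243 genes with at least 10 CPM in a sorted library were as far higher, and 2 lower, where 4.39% were. Of the same 9243 genes, 28.6% were higher at both steps and 20.0% lower at both. At the first step Itgam, Klrg1 and Cx3cr1 were over 2-fold higher (1.89% of all genes were) and Emb was over 2-fold lower (3.0%). At the second step Klrg1 and Cx3cr1 were over 2-fold higher (3.02%), and Cd27 and Emb were over 2-fold lower (1.31%). Each population had 1 library, so these differences have no replicate check and no p-value. Proteins of this kind are commonly used to sort NK cell stages, and whether any of the 6 was a sort marker was not given in the sources used here, so the values only describe the populations. In bulk RNA, fewer cells of a type and less RNA per cell cannot be told apart.

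**Figure D1:**
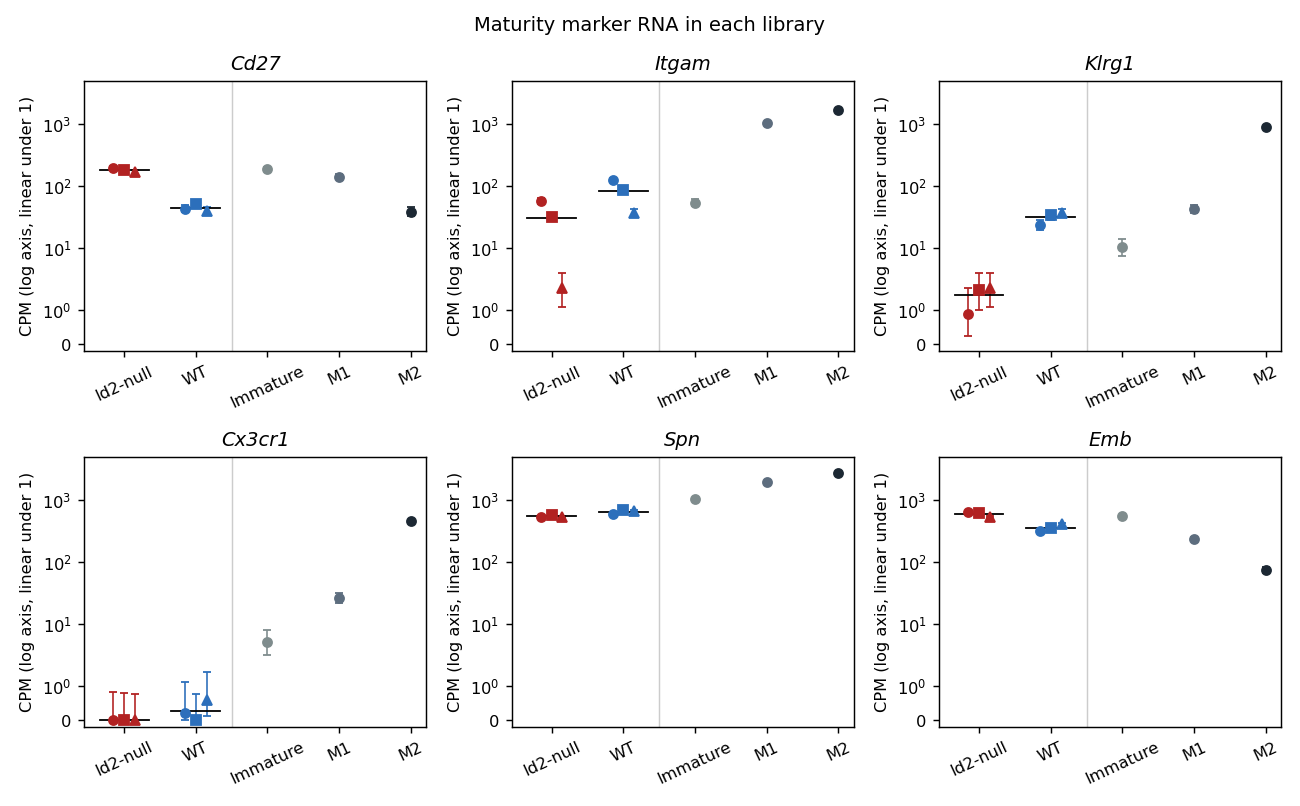
CPM of each marker in the 3 Id2-null and 3 WT cultures (horizontal bars are means, symbols are replicates) and in the Immature, M1 and M2 libraries, on a log axis that is linear under 1; error bars are exact Poisson 95% intervals. Cd27 lies at 171 to 196 CPM in Id2-null cultures and at 40.0 to 50.9 CPM in WT cultures, while Cx3cr1 is near 0 in all 6 cultures.

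Itgam, the alpha chain of the complement receptor and adhesion molecule Mac-1, was the member that was higher by the largest ratio at the first step. Its level was 54.1, 1059 and 1715 CPM in Immature, M1 and M2 cells. The M1 level was 19.6 times that of Immature (95% interval 17.1 to 22.6), and only 2 of the 9243 genes had a larger ratio. The M2 level was 1.62 times that of M1 (1.56 to 1.68). M1 had thus covered 60.5% of the CPM difference between Immature and M2.

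Spn, a heavily glycosylated sialomucin of leukocytes, had the highest level of the 6 per kilobase of transcript in all 3 populations. Its level was 1032, 1936 and 2710 CPM in Immature, M1 and M2 cells, with step ratios of 1.88 (1.81 to 1.95) and 1.40 (1.36 to 1.44). Like Itgam, it had covered more of its difference by M1 (53.9%) than after it. Its differences were the smallest of the 6 between Immature and M2, at 2.63-fold (2.53 to 2.72).

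Klrg1, an inhibitory lectin-like receptor that binds cadherins, and Cx3cr1, the receptor for the chemokine fractalkine, differed mostly at the second step. Klrg1 had 10.5, 42.5 and 892 CPM in Immature, M1 and M2 cells. Cx3cr1 had 5.10, 26.3 and 462 CPM, from 20, 109 and 1846 counts. M1 had covered 3.63% of the CPM difference between Immature and M2 for Klrg1 and 4.65% for Cx3cr1.

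The ratio of M2 to M1 was 21.0 for Klrg1 (95% interval 18.0 to 24.6), exceeded by 1 of the 9243 genes, and 17.6 for Cx3cr1 (14.5 to 21.5), exceeded by 3. Both were also higher in M1 than in Immature, by 4.06 times (2.88 to 5.86) and 5.16 times (3.18 to 8.77). The intervals of these 2 genes overlapped at both steps, so counting error alone does not separate their order. Itgam lay above both at the first step, with an interval that did not overlap theirs, and below both at the second.

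Cd27, a costimulatory receptor of the TNF receptor superfamily, was lower mainly at the second step. Its level was 190.5, 143 and 39.0 CPM in Immature, M1 and M2 cells. M1 kept 75.3% of the Immature level (95% interval 67.5 to 83.9) and M2 kept 27.2% of the M1 level (22.7 to 32.5), and 16 of the 9243 genes had a smaller ratio of M2 to M1.

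Emb was over 2-fold lower at each step. The populations had 557.6, 234 and 74.0 CPM of it, in the order Immature, M1 and M2. M1 kept 42.0% of the Immature level (38.9 to 45.3) and M2 kept 31.6% of the M1 level (27.7 to 36.0). Emb therefore stood lower in M1, relative to Immature, than Cd27 did, with intervals that did not overlap. The intervals of the 2 genes overlapped between M1 and M2.

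**Figure D2:**
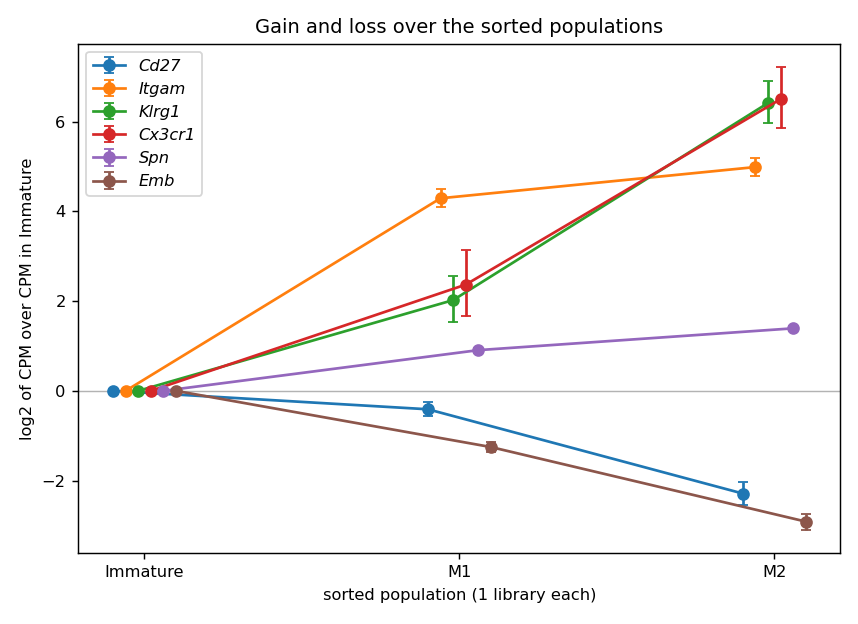
Log2 ratio of each marker's CPM to its CPM in the Immature library, across the 3 sorted populations with 1 library each; bars are exact 95% intervals of the ratio for counting error. Itgam covers most of its log2 difference by M1 (4.29 of 4.99), whereas Klrg1 and Cx3cr1 pass it only in M2, at 6.41 and 6.50, and Emb lies below Cd27 at both stages.

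The order of the 6 genes per kilobase differed between the populations. In Immature cells it was Spn (263.8 CPM per kilobase), Emb (213), Cd27 (121), Itgam (11.6), Klrg1 (7.66) and Cx3cr1 (1.37). In M1 cells Itgam stood second at 226 CPM per kilobase, and Cd27 and Emb were neighbours at 91.0 and 89.3. In M2 cells Spn (693) and Klrg1 (653) led, and Emb (28.2) and Cd27 (24.7) came last. The ratio of Cd27 to Itgam per kilobase was 10.5 in Immature, 0.402 in M1 and 0.0676 in M2 cells.

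RNA of other blood cells was present in the sorted libraries and differed between them. Of 8 monocyte and macrophage markers all 8 had counts in each sorted library. Without Ccr2, which NK cells express, their sum was 130 CPM in Immature and in M1 and 529 CPM in M2 cells. Neutrophil markers, 7 or 8 of 8 detected, summed to 92.1 to 539.6 CPM over the sorted libraries, and B cell markers, 8 of 8, to 39.6 to 108 CPM. Itgam and Cx3cr1 are also expressed by monocytes, so their counts were set against Csf1r, the receptor for macrophage colony-stimulating factor, which had 145, 152 and 631 counts in Immature, M1 and M2.

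Cx3cr1 had 0.138 counts per Csf1r count in Immature, 0.717 in M1 and 2.93 in M2, and Klrg1 had 0.283, 1.16 and 5.65 in the same order, so both were further apart between the populations than Csf1r. Itgam had 1.46 counts per Csf1r count in Immature, 28.9 in M1 and 10.9 in M2. T cell markers, 8 of 8 detected, summed to 703, 217 and 207.5 CPM in Immature, M1 and M2, with 918, 128 and 137 counts of Cd3d. Cd4 (18, 19 and 44 counts), Cd8a (28, 26 and 52) and Cd8b1 (4, 8 and 28) were instead highest in M2. ILC1 markers, 7 of 7 detected, summed to 492 CPM in Immature and to 113 and 125 CPM in M1 and M2, with 1005, 187 and 138 counts of Il7r, which is also on the list of less mature NK genes described next. Cd27 is also expressed by T cells, and it had 0.814, 4.64 and 1.14 counts per Cd3d count in Immature, M1 and M2. The part of these cells in the members' levels was not tested.

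Of 10 other surface genes of less mature NK cells, 5 were over 2-fold lower in M2 than in Immature, as Cd27 was, and none was as far higher. They were Kit, Il7r, Cxcr3, Ltb and Thy1, with M2 at 0.180, 0.135, 0.185, 0.124 and 0.379 times Immature. Over all 9243 genes, the background for all 3 lists described here, 4.39% were as far lower and 5.3% as far higher. The median log2 ratio of this first list was -1.19, against 0.04 over all 9243 genes. Of 10 other surface genes of more mature NK cells, 2 were over 2-fold higher in M2, the S1P receptor S1pr5 at 6.04 times and Ly6c2 at 3.59 times, and none lower (median log2 ratio 0.70). Of 16 ligands and binding partners of the members with enough counts, Cdh1, which encodes the KLRG1 ligand E-cadherin, was 3.18 times higher, and the other 15 were within 2-fold. This 1 of 16 is near the 5.3% of all genes that were over 2-fold higher. Itgb2, the chain that pairs with CD11b, was at 1496, 1884 and 2362 CPM in the 3 populations in that order.

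In the cultures, Cd27 and Emb rose and Klrg1 fell in Id2-null cells relative to WT cells, at an adjusted p under 0.05 in edgeR's quasi-likelihood test. Over all 11022 tested genes 3.36% were called, 1.84% as higher (203 genes) and 1.52% as lower (167). Itgam and Spn were not called, and Cx3cr1 had too few counts to be tested. Klrg1 passed the filter on low counts only through its WT libraries, where it is high, and is left out of the count: of the other 4 members tested, 2 were called. Adding replicate number as a block called 696 genes and left the members' calls as they were.

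Cd27 was 4.07 times as high without Id2. It stood at 196, 179 and 171 CPM in the Id2-null libraries, against 43.5, 50.9 and 40.0 CPM in the WT libraries. The groups did not overlap. Id2-null cells averaged 182 ± 12.6 CPM and WT cells 44.8 ± 5.58 CPM (SD, n = 3 each). The log2 difference was 2.03 ± 0.13 (SE), with an adjusted p of 0.000534 in edgeR. Its fold change lay between 1.95 and 2.13 when each of the 6 libraries was left out in turn, and it was called each time.

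T cell markers were mixed between the genotypes. In every culture 7 of 8 had counts and Cd4 was at 0. Their sum was 363.5 to 488.8 CPM in Id2-null libraries, against 157 to 326 CPM in WT libraries. Cd3d had 428, 775 and 430 counts in Id2-null and 92, 244 and 71 in WT libraries. Cd3g had 494, 639 and 392 counts in Id2-null and 86, 345 and 102 in WT libraries, while Cd3e had 43, 116 and 50 in Id2-null and 81, 396 and 94 in WT libraries. Cd28 had 737, 763 and 902 counts in Id2-null and 484, 574 and 711 in WT libraries, without overlap. Trat1 had 2, 9 and 4 counts in Id2-null and 3, 5 and 5 in WT libraries. Cd8a had 3 to 7 counts and Cd8b1 had 1 count in each of the 6 cultures. Markers of type 1 innate lymphoid cells (ILC1), 7 of 7 detected, summed to 170 to 237 CPM in Id2-null libraries, against 378 to 529 CPM in WT libraries, without overlap. The part of these cells in the members' levels was not tested.

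Emb stood at 650.1, 609 and 532 CPM in the Id2-null libraries, against 312.5, 347 and 403 CPM in the WT libraries. The groups did not overlap. Id2-null cells averaged 597 ± 59.9 CPM and WT cells 354 ± 45.6 CPM (SD, n = 3 each). The log2 difference was 0.76 ± 0.14 (SE), with an adjusted p of 0.032 in edgeR. The call was lost when replicate 1 or 2 of Id2-null or replicate 1 or 2 of WT was left out, with adjusted p-values of 0.131, 0.114, 0.156 and 0.134 and log2 fold changes of 0.70, 0.74, 0.67 and 0.74.

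Klrg1 had 4, 10 and 11 counts in the Id2-null libraries, against 114, 163 and 191 in the WT libraries. This is 0.881, 2.12 and 2.24 CPM in Id2-null cells, against 23.7, 33.9 and 36.7 CPM in WT cells, and the highest Id2-null library was far under the lowest WT library. Id2-null cells averaged 1.75 ± 0.753 CPM and WT cells 31.5 ± 6.82 CPM (SD, n = 3 each), 18.0 times lower in Id2-null cells. On the log2 scale the difference was -4.14 ± 0.34 (SE), with an adjusted p of 0.00102 in edgeR. It lay between -4.36 and -3.83 and was called with any 1 library left out. Klrg1 passed the filter on low counts only through its WT libraries, so these calls are no separate support for a difference.

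Itgam varied most within each genotype relative to its mean, of the 5 tested members, with a coefficient of variation of 90.4% in Id2-null and 53.9% in WT cells. It stood at 57.5, 32.0 and 2.24 CPM in the Id2-null libraries, against 127, 85.7 and 37.1 CPM in the WT libraries. Replicate 3 was the lowest of each genotype, and Id2-null replicate 1 was above WT replicate 3. Id2-null cells averaged 30.6 ± 27.7 CPM and WT cells 83.1 ± 44.8 CPM (SD, n = 3 each), a log2 difference of -1.44 ± 0.83 (SE) with an adjusted p of 0.502 in edgeR. With replicate 3 of both genotypes left out, a choice made after seeing the data, it was -1.25 and called (adjusted p = 0.000703), among 1014 genes called in that fit. With the replicate block it was -1.78 (SE 0.43, adjusted p = 0.0672).

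Spn stood at 538, 565 and 526 CPM in the Id2-null libraries, against 604, 678 and 656 CPM in the WT libraries. The groups did not overlap, as in 3 of the 4 tested members other than Klrg1 and 20.4% of all tested genes. Its log2 difference of -0.25 ± 0.11 (SE) was not called (adjusted p = 0.361, edgeR). Cx3cr1 had no count in any Id2-null library and 1, 0 and 3 counts in the WT libraries, all at or under the limit of 3 counts, so no fold change between the genotypes is given.

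**Figure D3:**
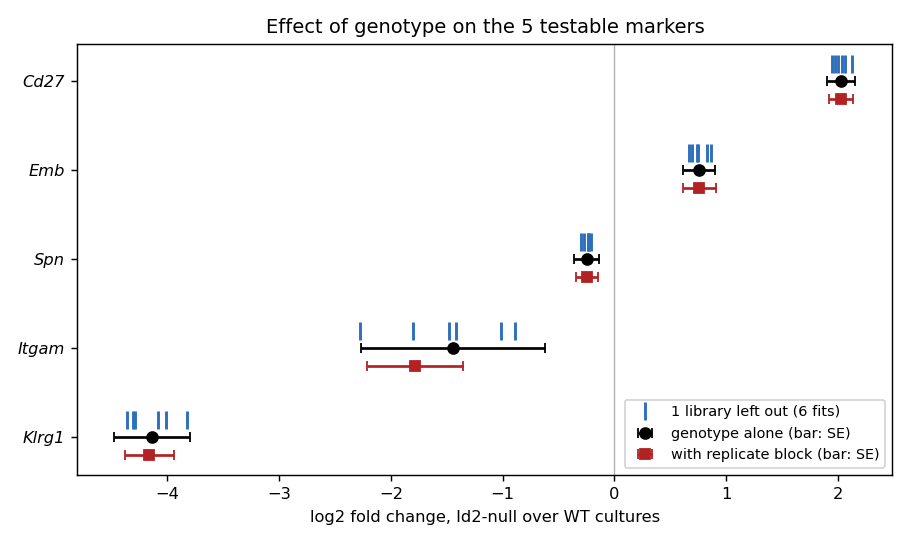
Log2 fold change of the 5 testable markers in Id2-null over WT cultures (3 libraries each): black points with bars are the estimate with genotype alone and its SE, red squares the estimate with the replicate number as a block and its SE, and blue ticks the 6 fits with 1 library left out. Cd27 (2.03) and Klrg1 (-4.14) keep narrow ranges, whereas Itgam spans -2.28 to -0.89.

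Ligands and binding partners of the members were mostly not called between the genotypes. Of 20, 16 could be tested, 1 fell and none rose, where 1.52% of all tested genes were called lower and 1.84% higher. The one that fell was Itgb2, the partner chain of CD11b, at 382, 395 and 334.5 CPM in Id2-null libraries, against 748, 730 and 565 CPM in WT libraries (log2 difference -0.87 ± 0.15, SE; adjusted p = 0.0195, edgeR). The median log2 fold change of the partners was 0.14, against 0.01 over all tested genes. Cd70, the ligand of CD27, and Cx3cl1, the ligand of CX3CR1, had at most 0.385 and 0.208 CPM in any of the 9 libraries, and Cdh2 was at 0 in all of them.

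Of the other surface genes of less mature NK cells, 3 of 9 tested rose in Id2-null cells and none fell. Over all tested genes 1.84% were called higher and 1.52% lower. They were the chemokine receptor Cxcr3, which lies on chromosome X (277 ± 44.0 CPM in Id2-null cells, 83.2 ± 17.0 CPM in WT cells), the lymphotoxin chain Ltb (310 ± 48.9 and 137 ± 23.8 CPM) and the interleukin-4 receptor chain Il4ra (455 ± 63.9 and 177 ± 19.8 CPM; SD, n = 3 each), with adjusted p-values of 0.00321, 0.0131 and 0.00339 (edgeR). Of 9 tested genes of more mature NK cells, Itgb2 fell and 2 rose, beside the same shares of all genes. Among those that rose, Ly6c2 averaged 166 ± 16.9 CPM in Id2-null cells and 59.0 ± 20.6 CPM in WT cells (SD, n = 3 each; adjusted p = 0.0171, edgeR). The median log2 fold changes were 0.29 for the first list and 0.02 for the second, against 0.01 over all tested genes. Ly6c2 belongs to a family with near-identical copies, and its counts are uncertain for that reason.

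Set beside the sorted populations, neither kind of culture had the levels of a single stage in all 6 genes. Id2-null cultures held Cd27 at 95.7% of the Immature level (89.9 to 103% by library) and Emb at 107% (95.4 to 117%). WT cultures held Cd27 at 115% of the M2 level (103 to 131%), but Emb at 63.5% of the Immature level (56.0 to 72.3%) and 4.78 times the M2 level. The sorted levels come from 1 library each, and these ratios were not tested.

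The markers of mature cells were below their M2 levels in both kinds of culture. Itgam in Id2-null cultures was at 2.89% of the M1 level (0.212 to 5.43% by library), and in WT cultures at 7.85% (3.51 to 12.0%). Against Immature it was at 56.5% in Id2-null cultures (4.15 to 106%) and at 154% in WT cultures (68.6 to 234%). Klrg1 was at 16.7% of the Immature level in Id2-null cultures (8.42 to 21.5%), whereas in WT cultures it was at 300.8% of the Immature level (227 to 351%), 74.1% of the M1 level (55.9 to 86.5%) and 3.53% of the M2 level. Spn was at 52.6% of the Immature level in Id2-null and 62.6% in WT cultures, below all 3 populations.

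Cx3cr1 was at or near 0 in all 6 cultures. With 0 counts in each Id2-null library, its level in M2 cells was at least 699-fold higher, from 3 counts per library, and in Immature cells at least 7.72-fold higher. The 3 WT cultures had 4 counts when pooled. Against these, the level was higher with 95% counting intervals of 666 to 6279 times in M2 cells and 6.33 to 76.0 times in Immature cells.

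Ratios between the members put the 2 kinds of culture at different places. Per kilobase, Cd27 over Itgam was 10.1, 16.7 and 227 in the Id2-null libraries, against 1.02, 1.77 and 3.20 in the WT libraries. All 3 Id2-null libraries were closer to Immature (10.5) than to M1 (0.402), though replicate 3, with 11 counts of Itgam, lay far above Immature. All 3 WT libraries lay between Immature and M1. Emb over Spn per kilobase was 1.80, 1.61 and 1.51 in the Id2-null libraries, against 0.772, 0.764 and 0.916 in the WT libraries and 0.806, 0.180 and 0.0407 in Immature, M1 and M2. Per kilobase the order of levels was Emb, Spn, Cd27, Itgam, Klrg1 and Cx3cr1 in Id2-null cultures and Spn, Emb, Cd27, Klrg1, Itgam and Cx3cr1 in WT cultures. In WT cultures the ranges of Cd27 (25.4 to 32.3 CPM per kilobase), Klrg1 (17.4 to 26.9) and Itgam (7.93 to 27.1) overlapped, so that the order of these neighbours is not set by the data.

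**Figure D4:**
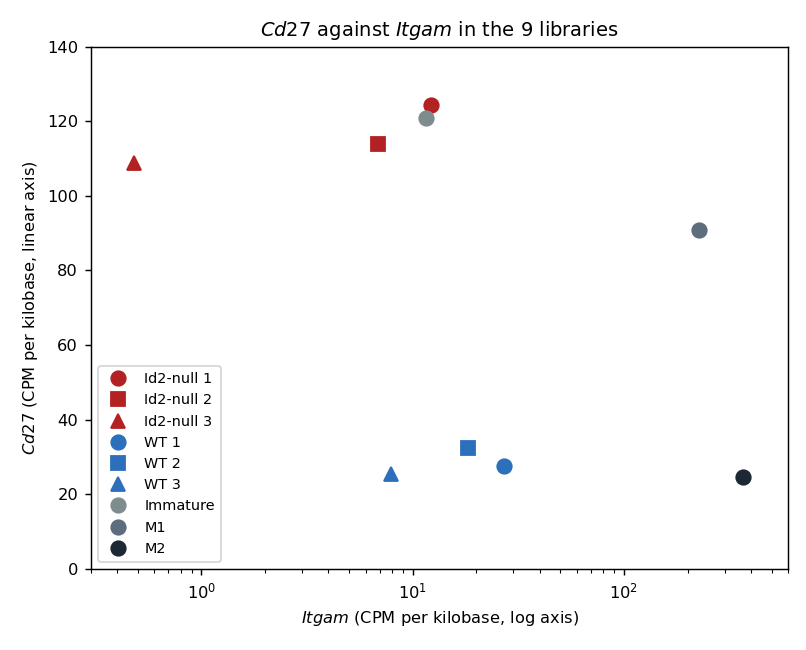
Cd27 (linear axis) against Itgam (log axis), both in CPM per kilobase, in each of the 9 libraries; colours mark the groups and symbols the replicates. The Id2-null cultures lie at 109 to 124 on the Cd27 axis, beside Immature (121), the WT cultures lie beside M2 in Cd27 (24.7), and none of the 6 cultures approaches the Itgam level of M1 (226).

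WT cultures were then compared with the 3 sorted wild-type libraries in 1 test, in which the spread among sorted libraries holds the differences between populations as well as error. The same WT libraries serve in the comparison of genotypes. Spn, Itgam and Cd27 were called lower in culture, 3 of the 5 members other than Cx3cr1, where 56.9% of 11117 tested genes were called, 29.4% as lower and 27.5% as higher. The count of members called is thus near what all genes gave. Cx3cr1 was also called, but passed the filter on low counts only through the sorted libraries. Klrg1 and Emb were not called. Some markers of other blood cells were also lower in the WT cultures. Monocyte and macrophage markers without Ccr2 summed to 16.9 to 21.6 CPM in WT cultures and 130 to 529 CPM in sorted libraries. With Ccr2 the sums overlapped, at 1046 to 1387 and 987 to 1198 CPM. B cell markers summed to 0.624 to 1.04 and 39.6 to 108 CPM, and neutrophil markers to 0 and 92.1 to 539.6 CPM. T cell markers overlapped, at 157 to 326 and 207.5 to 703 CPM, as did ILC1 markers, at 378 to 529 and 113 to 492 CPM. Cd68 (72, 89 and 99 counts in WT cultures, 43, 60 and 141 in sorted libraries) overlapped too. Of the 8 monocyte and macrophage markers 3 or 4 had counts in a WT culture, and Lyz2, Adgre1 and Fcgr1 were at 0 in all 3. The part of these cells in the differences of Itgam and Cx3cr1 was not tested.

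Spn stood at 604, 678 and 656 CPM in WT cultures, below all 3 sorted libraries, by a log2 difference of -1.54 ± 0.31 (SE; adjusted p = 0.00337, edgeR). It was called in all 12 alternative settings. Itgam overlapped with the sorted libraries through Immature cells and had a log2 difference of -3.50 ± 1.01 (SE; adjusted p = 0.0182, edgeR). Its call was lost with limma voom (adjusted p = 0.0757) and without WT replicate 2 (0.0645) or 3 (0.0625).

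Cd27 overlapped with the sorted libraries through M2 cells and had a log2 difference of -1.46 ± 0.47 (SE; adjusted p = 0.0285, edgeR). The call was lost in 7 of 12 alternative settings, with adjusted p-values of 0.0597 to 0.094. Cx3cr1 did not overlap, as for 65.8% of all genes. Its fitted log2 fold change was -9.10 (adjusted p = 0.00741, edgeR), which depends on how counts of 0 are treated, and by the way it passed the filter it had to differ. Limma voom did not call it (adjusted p = 0.208).

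Klrg1 had a log2 difference of -3.31 ± 1.33 (SE; adjusted p = 0.0616, edgeR) and Emb of 0.30 ± 0.57 (adjusted p = 0.671, edgeR) in WT cultures over sorted libraries. Both rested on the M2 library. Without it the direction of each was the opposite, at 0.24 for Klrg1 (adjusted p = 0.698) and -0.16 for Emb (adjusted p = 0.699). Without the Immature library both were called, at -3.89 for Klrg1 (adjusted p = 0.00962) and 1.20 for Emb (adjusted p = 0.0374). Klrg1 was also called in edgeR without the M1 library (-3.84, adjusted p = 0.0439) and with no expression filter (-3.32, adjusted p = 0.0385). With all 9 libraries in 1 fit of 5 groups the log2 differences were -1.21 for Klrg1 and 0.74 for Emb. In that fit the sorted side was a mean of the log2 levels of the 3 populations. Each population had 1 library there, so the spread came from the cultures alone.

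Of 10 other surface genes of mature NK cells, 9 were called lower in the WT cultures and none higher, where 29.4% of all tested genes were called lower. Their median log2 fold change was -2.85, against -0.02 over all tested genes. This count and median include S1pr5 and S1pr1, which passed the filter on low counts only through the sorted libraries. Their calls are therefore no support for a loss. The same holds for Il7r and Slc16a7 in the counts of the other lists that follow. S1pr5 averaged 1.36 ± 1.00 CPM in WT cultures and 531 ± 381 CPM in sorted cells (SD, n = 3 each). The gene not called was Fcgr3. Of 10 genes of less mature cells 4 were lower (Il7r, Cxcr4, Il18r1 and Cd226) and 2 higher (Thy1 and Cd69), with a median of -0.79, where 56.9% of all tested genes were called in either direction.

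Of 17 tested ligands and partners 4 were higher in WT cultures and 8 lower, with a median of -0.36, beside the same 56.9% of all genes. The 4 higher ones were Cdh1, the monocarboxylate transporters Slc16a1 and Slc16a3, and Bsg, which encodes basigin, a relative of embigin. Slc16a3 stood at 352.5, 333 and 27.5 CPM in WT replicates 1 to 3, so that replicate 3 stood apart. Nptn, the third member of the basigin and embigin family, was lower at 126 ± 5.05 CPM in WT cultures and 376 ± 99.3 CPM in sorted cells (SD, n = 3 each). Itgb2, Icam1, Icam2, Msn, Traf5, Inpp5d and Slc16a7 were also lower.

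Genes with the most similar patterns were found by the root mean square difference of log2(CPM + 1) over the 9 libraries, each gene centred on its mean, among 9012 genes with a mean of at least 10 CPM. Nearest to Cd27 were the X-linked gene Cxcr3 (0.237 log2 units), Aff3 (0.255) and Tcf7 (0.323). Tcf7, the gene of the transcription factor TCF-1, stood at 1050, 927 and 787 CPM in the Id2-null libraries, against 159, 204 and 290 CPM in the WT libraries, and at 1052, 550 and 138.5 CPM in Immature, M1 and M2. Aff3 stood at 108, 93.8 and 86.9 CPM in the Id2-null libraries, against 12.5, 21.2 and 17.7 CPM in the WT libraries.

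Nearest to Emb were Acpp (0.267), Armcx4 (0.348, also X-linked) and Pitpnm2 (0.359), and nearest to Spn were Slc41a3 (0.152), Spryd3 (0.153) and Ptpn12 (0.178). Klrg1, Itgam and Cx3cr1 had no neighbour as close. Their own spread over the 9 libraries was wider, at 2.56, 2.55 and 2.9 log2 units, against 1.0 for Cd27, 0.919 for Emb and 0.818 for Spn. The differences were not scaled by this spread. Nearest to Klrg1 were Serpinb9b (0.888), Gpx8 (1.01) and Entpd1 (1.08), and nearest to Itgam were Pxylp1 (1.12), Gzma (1.15) and Mcpt8 (1.21). Entpd1, which encodes the ectonucleotidase CD39, stood at 2.86, 2.12 and 1.22 CPM in the Id2-null libraries, against 110, 73.6 and 48.1 CPM in the WT libraries, and at 9.95, 107 and 275 CPM in Immature, M1 and M2. Nearest to Cx3cr1 were S100a8 (0.917), which is on the list of neutrophil markers, Fcgr2b (0.951) and Kcnj8 (0.951). Among the members themselves, Cd27 and Emb were the closest pair at 0.829, and Emb and Cx3cr1 the farthest at 3.73. The points of this measure share 9 libraries and their depths, and it carries no test.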

How the data were processed

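RNA was measured in 9 libraries of spleen NK cells. The deposited files hold raw counts per Entrez gene and gene lengths in bases, per the file headers. The submitters' processing notes name Subread, featureCounts and limma as tools and GRCm38 (mm10) as the build. Versions, strand setting and treatment of reads with several matches were not given in the sources used here. Symbols and coordinates came from RefSeq (GRCm38.p6), which matched 25275 of 27179 identifiers.

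Counts were tested in R 4.3.3 with edgeR 4.0.16 (filterByExpr with a minimum count of 10, TMM, quasi-likelihood, genotype or culture alone, Benjamini-Hochberg adjustment over all tested genes, called under 0.05). Over the cultures 1625 genes had an unadjusted p under 0.05. CPM were scaled by TMM over all 9 libraries, and CPM per kilobase used the deposited lengths. Intervals are exact Poisson or conditional binomial 95% intervals. Sorted populations were compared by ratio over genes with at least 10 CPM in 1 of them. Alternatives were DESeq2 1.42.0, limma voom 3.58.1, library sizes without TMM, no filter, all 9 libraries in 1 fit, each library left out, the replicate block and, added after seeing the data, robust dispersion and no replicate 3.

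Same-numbered Id2-null and WT libraries deviated together from their group means (r = 0.352, 0.241 and 0.417 over genes, each over 0.1). Id2-null replicate 1 with WT replicate 2 (0.189) and Id2-null replicate 2 with WT replicate 1 (0.136) were also over 0.1. The remaining pairs, each with 1 library of replicate 3, were negative. The pairing of replicates 1 and 2 is thus not clear from the data, and the labels do not state any. The main fit therefore left it out, and the replicate block was an alternative. No 2 replicates held the same values. The fits were tested on simulated data with known changes of 1 or 2 log2 units. At 1 log2 unit edgeR recovered 63% between genotypes and 76% between WT cultures and sorted libraries. At 2 log2 units it recovered 100% in both. The simulation gave all genes 1 common dispersion and held no smaller changes, so it does not cover those of Emb and Spn between genotypes or the spread of Itgam.

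The members and gene lists were chosen with earlier results of these data known. Named were all 6 members, list members called in either test, the 2 most expressed of a list without a call, the 3 nearest genes per member, and Id2, though some genes that the rule took are left out here; the sorted-population and marker values of other list members, Xist and Ddx3y were chosen after their values were seen.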

Additional observations from a re-analysis of the deposited data

How the results depend on the processing

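The number of members called between Id2-null and WT cultures (3, Klrg1 included) was within 1.5 times in all 14 alternatives, and 2 to 3 with 1 library left out. Of all genes tested in the main fit 3.36% were called. Klrg1 passed the filter on low counts only through its WT libraries, so its part in these counts is no support for a difference. The number of genes called there moved with the settings: 370 as reported, 580 with DESeq2, 105 to 624 with 1 library left out (624 without Id2-null replicate 3, 105 without WT replicate 1), 696 with the replicate block and 1014 without replicate 3 of both genotypes; the cause was not tested. The block changed no member's call. In WT cultures over sorted libraries, 4 members were called, Cx3cr1 included, where 56.9% of all tested genes were called, so the count is near that share. It was 1 with limma voom and 2 to 5 with 1 library left out (2 without WT replicate 2 or 3). Cx3cr1 passed the filter on low counts only through the sorted libraries, so its part in these counts is no support for a difference. Klrg1 (0.24) and Emb (-0.16) changed direction without M2. With 1 library left out they ranged from -3.89 to 0.24 for Klrg1 and from -0.16 to 1.20 for Emb. Library sizes without TMM gave 3718 genes higher and 2606 lower in WT cultures, against 3055 and 3270, with the median of all genes at 0.15 against -0.02, and made the M2 to Immature log2 ratio of Spn 1.30 rather than 1.39; no member changed its call or direction with that scaling. DESeq2 gave no adjusted p for Klrg1 in WT cultures over sorted libraries. Depth limited Cx3cr1 in all cultures and Klrg1 in Id2-null cultures, and 1 library per sorted population left the order of gain and loss without a replicate check.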
